A study of Mus musculus with 7 samples.

Results

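Monocyte progenitors are myeloid cells, and this account asks how far the genes that define B cells, T cells, NK cells and innate lymphoid cells carry marks of active chromatin there. The 38 genes are 12 of B cells, 14 of T cells and 12 of NK and innate lymphoid cells, of 21887 protein-coding genes in the mouse RefSeq annotation. Peak intervals were taken where they overlapped such a gene or lay within 20 kb of either end of it on the mm10 build. The cells were common monocyte progenitors (cMoPs) sorted from mouse bone marrow, with 100000 cells per sample, profiled by CUTAC. In this assay an antibody tethers a transposase to a histone mark, and tagmentation without added salt releases accessible DNA beside it. The 4 H3K4me2 libraries were DE replicates 1 and 2 and WT replicates 1 and 2, all of batch 2, where DE and WT are the labelled variants of an enhancer at -165 kb of Zeb2. The 1 H3K4me3 library was WT and of batch 1, so for H3K4me3 the mark and the batch cannot be told apart. The labels do not spell out DE, and do not say whether the replicates came from separate mice or from pooled mice, so the spread between replicates may be technical. Of the 7 samples, 2 WT samples (IgG in cMoPs and H3K4me3 in cells labelled MDP) were not analysed here.

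Each lymphoid lineage is set up by a few transcription factors and then shows its identity through antigen receptor chains, coreceptors and, in cytotoxic cells, granule proteins. H3K4me2 marks promoters and enhancers that are active or poised, whereas H3K4me3 is concentrated at the starts of active genes. Multipotent progenitors are known to hold accessible chromatin at some genes of lineages they will not enter, and Zeb2 encodes a repressor that binds E-box sequences.

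The H3K4me2 lists held 21968 and 17079 intervals in DE replicates 1 and 2, against 32354 and 28152 in WT replicates 1 and 2, and the H3K4me3 list held 6425. Read totals are not part of these lists, so the depth behind them is unknown. The shortest interval was 109 bp in both DE lists, against 74 and 91 bp in the WT lists, so a narrow WT interval has no DE counterpart of its width. The header inside the list of DE replicate 1 carries the name of DE replicate 2, but the lists differ in length and were assigned by the record of the series. Of 12 marker genes of cMoPs and the monocyte lineage, 9 had H3K4me2 within 1 kb of the start in all 4 lists, namely Csf1r, Ly6c2, Irf8, Klf4, Kit, Flt3, Mpo, Elane and Spi1. The same held for 1 of 6 B cell markers (Cd79b), 0 of 6 T cell markers and 0 of 6 NK and innate lymphoid markers. Of all genes, 39.3% were called so.

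Pooled over the 4 lists, H3K4me2 lay near the lymphoid genes about as often as near any gene, but less often on them, and in each single list the share of lymphoid genes with H3K4me2 nearby was below that of all genes. Within 20 kb, 29 of the 38 genes (76.3%) had an interval in at least 1 H3K4me2 list, beside 74.9% of all protein-coding genes. When only intervals in the gene body or within 1 kb of its start were counted, here called own intervals, 15 of 38 genes (39.5%) had one, beside 62.5% of all genes. The lineages differed, with 25% of the B cell genes, 57.1% of the T cell genes and 33.3% of the NK and innate lymphoid genes. The T cell share was thus the nearest to that of all genes. Within 1 kb of the start, 7 of 38 genes (18.4%) had an interval, beside 53.9% of all genes. These 7 were Cd79b, Tcf7, Gata3, Cd4, Tbx21, Nkg7 and Zbtb16. The intervals counted for Cd4 lay outside it, within 1 kb of the start of its neighbour Gpr162. Starts came from the RefSeq promoter table for 30 of the genes, and for the other 8 either end of the gene was allowed, which can only raise their count. Counted for the overlapped or nearest gene alone, intervals within 20 kb were found at 20 of the 38 genes, beside 66.3% of all genes.

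Per library, 23 and 18 of the 38 genes (60.5% and 47.4%) had an interval within 20 kb in DE replicates 1 and 2 (63.8% and 58.1% of all genes), against 25 and 21 (65.8% and 55.3%) in WT replicates 1 and 2 (70.3% and 67.9% of all genes). Own intervals were found at 10 and 8 genes in DE replicates 1 and 2 (52.0% and 46.4% of all genes), against 11 and 9 in WT replicates 1 and 2 (57.6% and 56.8% of all genes). The counts of the genotypes overlapped by both rules. Intervals within 20 kb were found in all 4 lists at 17 genes (44.7%), beside 55.2% of all genes. Own intervals in all 4 lists were seen at 6 genes, Cd79b, Cd247, Lck, Gata3, Rora and Zbtb16, where 43.3% of all genes had them. At the other end, 9 genes had no H3K4me2 within 20 kb in any list (25.1% of all genes), and 14 had H3K4me2 within 20 kb but none of their own. In at least 1 list, 74.9% of all genes had H3K4me2 within 20 kb and 62.5% had an own interval. By own intervals, 23 genes were called in no list (37.5% of all genes).

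**Figure D1:**
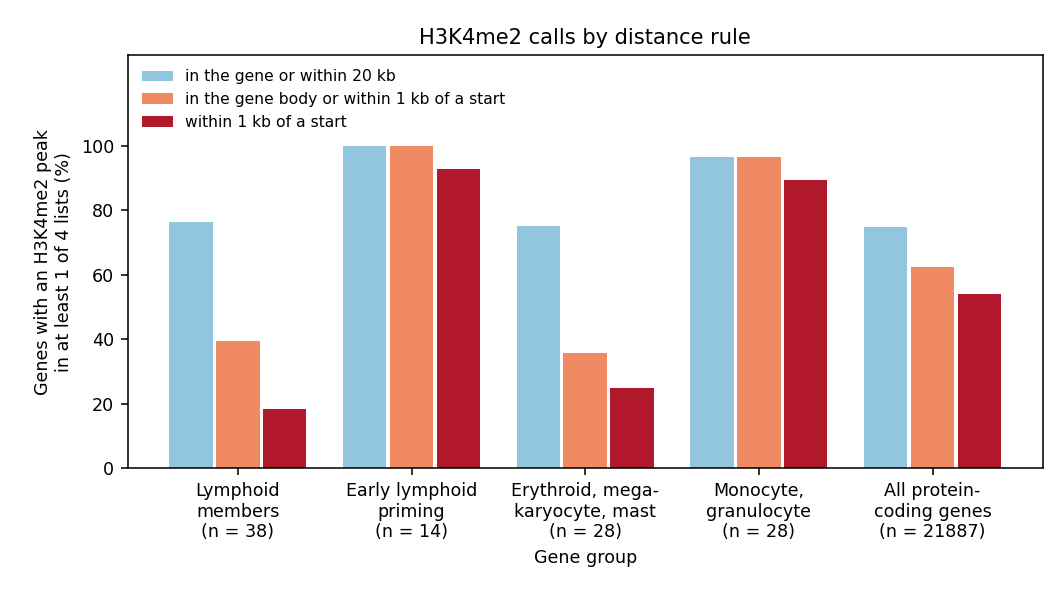
Share of genes (%) with an H3K4me2 interval in at least 1 of the 4 lists, for 5 gene groups, under 3 distance rules shown as bars. The 38 lymphoid genes stand at 76.3% within 20 kb and 18.4% within 1 kb of a start, and all genes at 74.9% and 53.9%.

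Gene length bears on such counts, since a long gene offers more room for an own interval. Among genes under 10 kb, 3 of 14 lymphoid genes had an own interval in at least 1 list, beside 40.3% of all genes of that length. Among genes of 10 to 50 kb it was 6 of 16, beside 70.8%, among those of 50 to 100 kb 2 of 3, beside 81.0%, and among those of 100 kb or more 4 of 5, beside 85.5%. The lymphoid genes without own intervals were thus mostly short or of middle length. Within 20 kb the classes differed in direction, with 13 of 14 lymphoid genes under 10 kb called in at least 1 list, beside 58.6% of all genes of that length, and 10 of 16 of those of 10 to 50 kb, beside 82.0%.

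The intervals of the 4 lists were merged into 41015 regions, of which 90 touched the windows of the 38 genes. Of these 90 regions, 14 lay within 1 kb of the start of a lymphoid gene and 20 in the body of one. Those counted at a Cd4 end also lay within 1 kb of the start of its neighbour Gpr162. A further 24 lay within 1 kb of the start of a neighbouring gene, 13 in the body of a neighbour and 19 between protein-coding genes. A window of 20 kb thus mainly sampled the surroundings of the lymphoid genes, with 56 of 90 regions outside them. At the edge of the window, the outermost regions inside lay 18295 bp from Thy1, 19141 bp from Cd79b and 19922 bp from Eomes, and the nearest outside lay 20208 bp from Cd247, 20537 bp from Eomes and 21153 bp from Vpreb3.

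**Figure D2:**
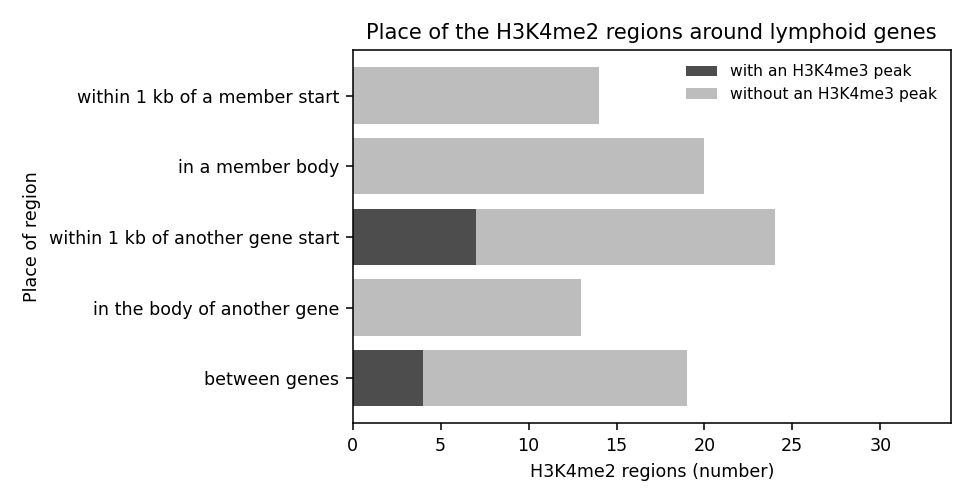
Number of merged H3K4me2 regions near the 38 lymphoid genes by place, split by whether an H3K4me3 interval overlaps. The 34 regions on lymphoid genes carry no H3K4me3, and the 11 with H3K4me3 lie at the starts of neighbours (7) or between genes (4).

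The strength of an interval is given below as its rank, its place by the authors' -log10 p as a percent of its own list, where 0 is strongest. Ranks and folds are the authors' values within a list, and a difference of rank between lists of unequal length is no change of the mark. The median rank of own intervals was 47.2% and 41.0% in DE replicates 1 and 2 (n = 18 and 17), against 48.4% and 54.4% in WT replicates 1 and 2 (n = 27 and 18). For own intervals within 1 kb of a lymphoid start alone, the medians were 41.9% and 41.0% in DE replicates 1 and 2 (n = 7 and 7). In WT replicates 1 and 2 they were 43.0% and 40.0% (n = 10 and 8). Intervals within 1 kb of any start had median ranks of 39.7% and 43.4% in DE replicates 1 and 2, against 37.1% and 37.8% in WT replicates 1 and 2. The medians of all own intervals were thus near the middle of the lists. The strongest own regions by mean rank were at Rora, Zbtb16, Lck and Gata3.

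Promoters are printed for 4 genes with an own region that was called in both libraries of 1 genotype and neither of the other, Gata3, Nkg7, Tbx21 and Cd247. Only the Gata3 region with that pattern lies in its printed window, and those of Nkg7, Tbx21 and Cd247 lie outside theirs. Each is the RefSeq sequence of GRCm38.p6 (mm10) over 300 bases, 250 before the start and 50 from it, 5' to 3' on the strand of the gene. The windows are chr2:9878551-9878850 on the minus strand for Gata3, chr7:43436888-43437187 on the plus strand for Nkg7, chr11:97115282-97115581 on the minus strand for Tbx21 and chr1:165788431-165788730 on the plus strand for Cd247. Capitals mark matches on either strand to CACCTG (an E-box bound by ZEB2), CAGCTG (an E-box bound by E proteins), TGTGGT (RUNX) or TTGCNNAA (C/EBP).
Gata3: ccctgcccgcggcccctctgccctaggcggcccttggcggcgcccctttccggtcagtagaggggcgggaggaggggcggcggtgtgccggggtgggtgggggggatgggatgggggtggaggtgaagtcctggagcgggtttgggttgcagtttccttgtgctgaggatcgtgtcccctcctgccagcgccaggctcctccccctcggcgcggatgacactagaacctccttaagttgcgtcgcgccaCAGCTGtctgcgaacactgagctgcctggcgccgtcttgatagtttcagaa
Nkg7: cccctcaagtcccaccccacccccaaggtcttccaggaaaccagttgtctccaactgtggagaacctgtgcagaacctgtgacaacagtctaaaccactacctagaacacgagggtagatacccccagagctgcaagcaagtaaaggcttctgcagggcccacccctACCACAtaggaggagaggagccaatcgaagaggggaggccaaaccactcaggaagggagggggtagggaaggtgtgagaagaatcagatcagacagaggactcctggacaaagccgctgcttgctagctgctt
Tbx21: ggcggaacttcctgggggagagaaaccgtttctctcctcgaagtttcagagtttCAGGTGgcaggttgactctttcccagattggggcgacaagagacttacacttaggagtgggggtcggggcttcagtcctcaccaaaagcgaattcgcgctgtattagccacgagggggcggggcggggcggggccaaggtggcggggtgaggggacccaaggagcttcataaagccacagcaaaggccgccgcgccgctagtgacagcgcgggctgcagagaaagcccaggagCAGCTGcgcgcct
Cd247: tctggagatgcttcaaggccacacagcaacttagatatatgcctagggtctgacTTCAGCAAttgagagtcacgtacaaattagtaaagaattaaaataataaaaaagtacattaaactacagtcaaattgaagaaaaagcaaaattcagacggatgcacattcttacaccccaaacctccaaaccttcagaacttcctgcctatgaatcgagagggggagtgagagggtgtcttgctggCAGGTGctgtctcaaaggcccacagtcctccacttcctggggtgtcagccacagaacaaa

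CAGCTG begins 1 bp before the Gata3 start, on the plus strand of the gene. In the Nkg7 promoter TGTGGT matched on the opposite strand 83 bp before the start. In the Tbx21 promoter CACCTG matched on the opposite strand 196 bp before the start and CAGCTG 37 bp after it. In the Cd247 promoter CACCTG matched on the opposite strand 10 bp before the start, and TTGCNNAA on the opposite strand 196 bp before it. Over all 37 promoter windows of the 30 lymphoid genes in the table, 17 (45.9%) held CACCTG, beside 19.7% of all 21238 windows. CAGCTG was in 9 windows (24.3%, beside 15.6%), TGTGGT in 13 (35.1%, beside 15.0%) and TTGCNNAA in 4 (10.8%, beside 10.2%). GAGGAAGT, a PU.1 motif, was in 0 windows, beside 3.13% of all. These are counts of letters on both strands of the genome, windows of the same gene can overlap, and no test was run on them.

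**Figure D3:**
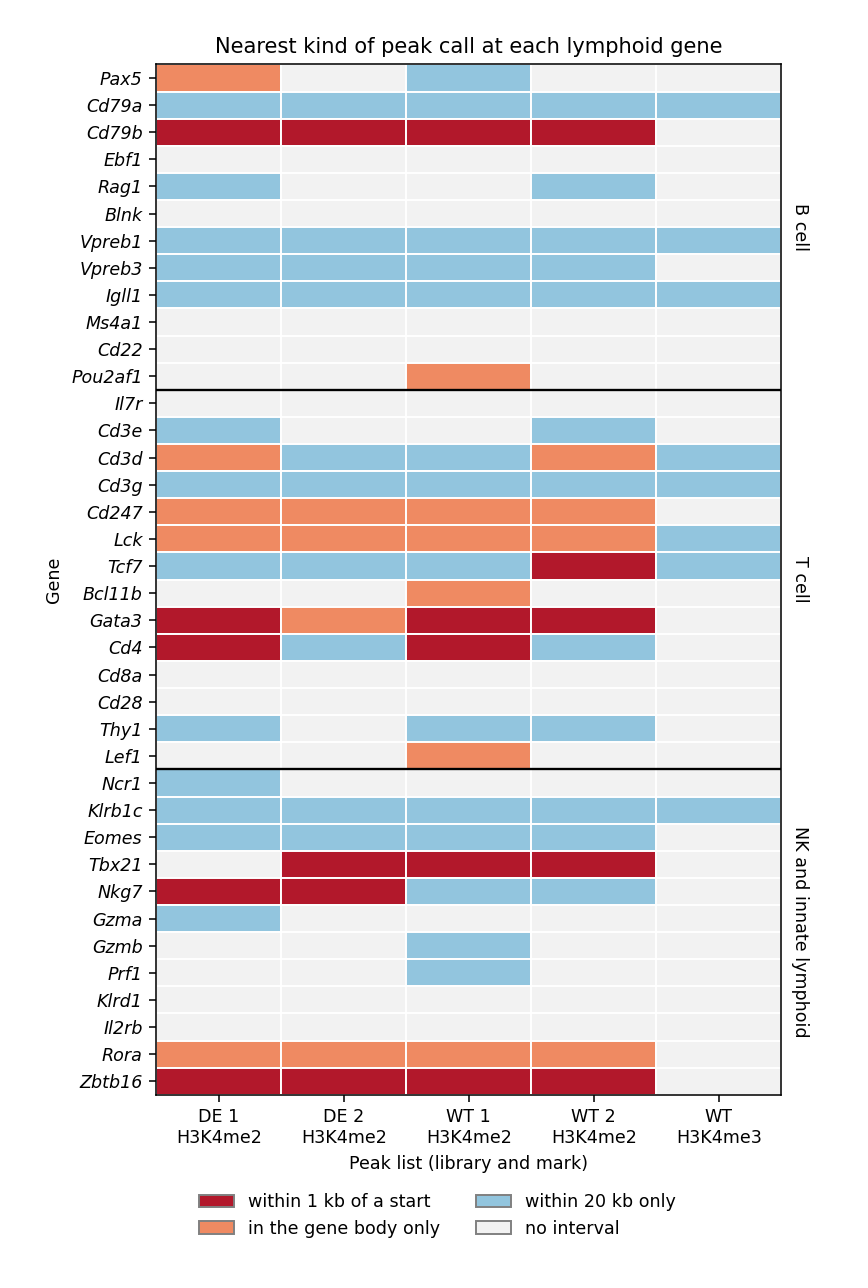
Peak calls at each of the 38 lymphoid genes (rows) in the 5 lists (columns), coloured by the closest kind of place, from within 1 kb of a start to within 20 kb only. Dark red fills all 4 H3K4me2 columns at Cd79b and Zbtb16 alone, and no H3K4me3 cell is dark red or orange.

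Among the 12 B cell genes, 8 had H3K4me2 within 20 kb in some list (74.9% of all genes). An own interval was found at 3 (62.5% of all genes) and a start interval at 1 (53.9% of all genes). That one was Cd79b, which encodes the Ig-beta signalling chain of the B cell receptor. Its region over the higher-coordinate end of the gene (chromosome 11, 106314344 to 106314720, 377 bp) had ranks of 54.6% and 41.0% in DE replicates 1 and 2, against 31.1% and 42.8% in WT replicates 1 and 2. The authors' fold over background there was 6.0 and 6.93 in DE replicates 1 and 2, against 7.05 and 8.60 in WT replicates 1 and 2. The mark was present in all 4 libraries, at a middling place in each list. A second region 637 bp inside the gene (106313582 to 106313925) ranked 32.6% and 18.8% in DE replicates 1 and 2 and 62.4% in WT replicate 2, and was not listed in WT replicate 1. With all lists cut to their 17079 strongest intervals it was called in both DE libraries and neither WT library.

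Cd79a, which encodes the partner chain Ig-alpha, had intervals within 20 kb in all 4 lists and in the H3K4me3 list, but none of its own. The strongest region near it (chromosome 7, 24904098 to 24904480) lay within 1 kb of the start of Arhgef1, a neighbouring gene, 2240 bp beyond the end of Cd79a. That region ranked 2.13% and 2.23% in DE replicates 1 and 2, against 2.39% and 2.77% in WT replicates 1 and 2, and 27.0% in the H3K4me3 list. A region 995 bp from Cd79a, also at the Arhgef1 start, ranked 43.1% in DE replicate 1, against 39.7% and 46.3% in WT replicates 1 and 2, and was not listed in DE replicate 2. The other regions lay at Arhgef1 or at the start of Rps19, a ribosomal protein gene.

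Vpreb1 and Igll1, which encode the surrogate light chain of the pre-B cell receptor, shared a single region at the start of Top3b, a topoisomerase gene. It lay 1373 bp from Vpreb1 and 6643 bp from Igll1 (chromosome 16, 16870628 to 16871200), so the 2 genes are not independent counts. It ranked 25.5% and 17.1% in DE replicates 1 and 2, against 13.0% and 15.1% in WT replicates 1 and 2, with H3K4me3 at 74.0%. Vpreb3, a further pre-B cell receptor gene, owed its strongest call to a region in the body of Chchd10, a mitochondrial protein gene, 6932 bp away. That region ranked 8.40% and 13.9% in DE replicates 1 and 2, against 20.6% and 16.1% in WT replicates 1 and 2. These 3 genes of the pre-B cell receptor therefore had H3K4me2 near them in all 4 lists and none on them.

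Of the B cell regulators, Pax5, the identity factor of B cells, had an own interval in 1 list, at 7582 bp from the start with a rank of 80.2% in DE replicate 1. Pou2af1, a coactivator of octamer-binding factors, had 1 of 81 bp at 75.8% in WT replicate 1. Rag1, a subunit of the recombinase of antigen receptor genes, had none of its own. Its window held 3 regions, of which 1 was in 2 lists, at the neighbours Iftap and Rag2, at 94.5% in DE replicate 1 and 75.7% in WT replicate 2. The nearest, 8444 bp away between protein-coding genes, was in WT replicate 2 alone at 82.8%. Ebf1, a factor that specifies B cells, Blnk, an adaptor of the B cell receptor, Ms4a1 (CD20) and Cd22, an inhibitory coreceptor, had no interval within 20 kb in any list. Their nearest regions lay 37.3 kb away for Ebf1, 32.5 kb for Blnk, 25.9 kb for Ms4a1 and 25.4 kb for Cd22, each called in 1 library.

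Of the 14 T cell genes, 11 had H3K4me2 within 20 kb in some list (74.9% of all genes). An own interval was found at 8 (57.1%, beside 62.5% of all genes) and a start interval at 3 (53.9% of all genes). Of the T cell transcription factor genes, Gata3, a factor of T helper and innate lymphoid development, had own intervals in all 4 lists (chromosome 2, 9857078 to 9887953, with the listed start at 9878600). A region upstream of the start, at 971 bp at its nearest, ranked 31.2% and 37.3% in DE replicates 1 and 2, against 9.77% and 4.44% in WT replicates 1 and 2. The authors' fold there was 4.00 and 3.78 in DE replicates 1 and 2, against 9.63 and 9.64 in WT replicates 1 and 2. A region downstream, at 995 bp at its nearest, ranked 46.9% and 37.6% in DE replicates 1 and 2, against 81.6% and 50.8% in WT replicates 1 and 2. Both flanks were thus called in all 4 libraries, and both sit at the limit of 1 kb, which is why DE replicate 2 counts as a call in the body and not at the start.

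Between these flanks, a narrow region over the Gata3 start (9878598 to 9878699, 102 bp) was not listed in DE replicate 1 or 2, and ranked 46.3% and 36.7% in WT replicates 1 and 2. The authors' fold was 6.07 and 8.69 in WT replicates 1 and 2. Its lower edge overlaps the CAGCTG match printed above. The WT intervals were 76 and 102 bp wide, narrower than the 109 bp of the shortest interval in either DE list, and the part of interval width in this pattern was not tested. The pattern held when all lists were cut to their 17079 strongest intervals and at a -log10 q of at least 5.

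**Figure D4:**
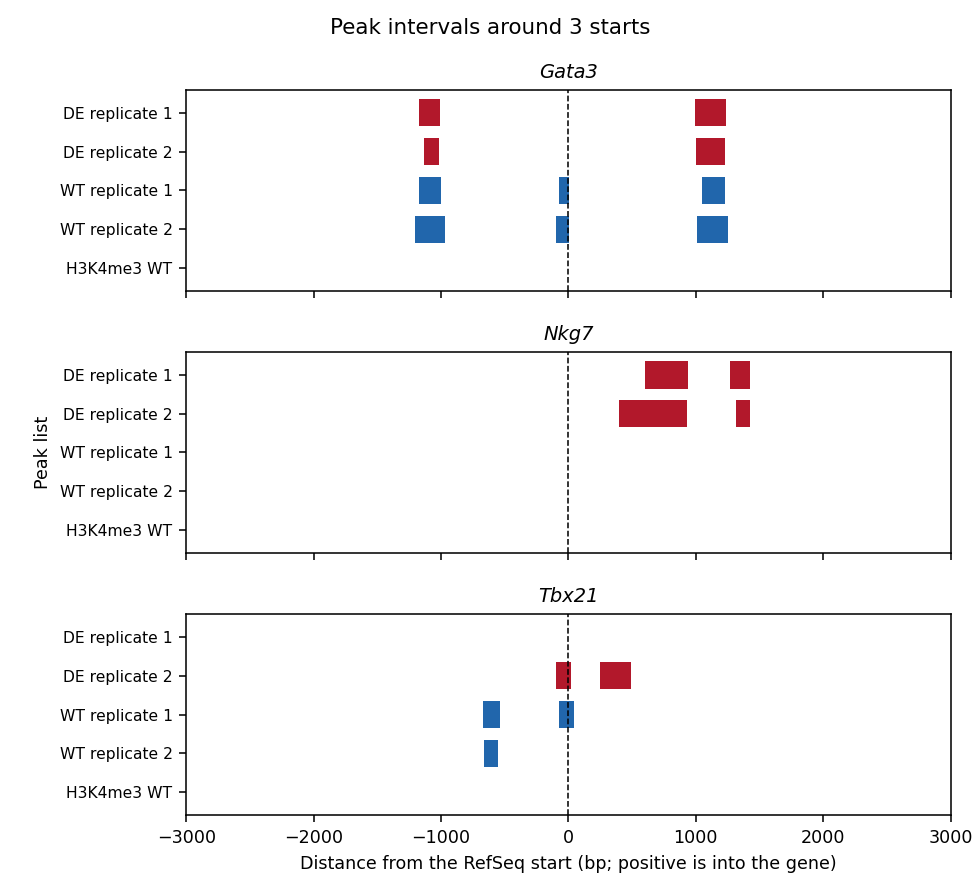
Peak intervals (bars) around the RefSeq starts of Gata3, Nkg7 and Tbx21, by distance from the start in bp, with DE libraries above WT libraries and H3K4me3 at the bottom of each panel. The Gata3 start is covered in WT replicates 1 and 2 alone, the Nkg7 intervals, which begin 603 and 398 bp past the start, are in DE replicates 1 and 2 alone, and no H3K4me3 interval falls in the windows.

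Tcf7, which encodes TCF-1, the factor of early T cell commitment, had an own interval in WT replicate 2 alone, 312 bp from a start, with a rank of 65.2%. Its calls within 20 kb in all lists came from a region at the start of Skp1, a ubiquitin ligase subunit gene, which ranked 3.93% and 30.5% in DE replicates 1 and 2, against 14.8% and 35.9% in WT replicates 1 and 2. Lef1, the partner factor of TCF-1, and Bcl11b, a factor of T cell commitment, each had a single interval in the body in WT replicate 1, at ranks of 46.7% and 94.0%. Those intervals were 74 bp and 85 bp wide. The factors of T cell commitment other than Gata3 thus showed at most 1 own interval, in 1 WT list.

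Lck and Cd247 were called in their bodies in all 4 lists. Lck, the kinase that starts T cell receptor signalling, had a region of 253 bp (chromosome 4, 129556453 to 129556705) 1667 bp from a start. It ranked 24.9% and 17.0% in DE replicates 1 and 2, against 8.49% and 14.6% in WT replicates 1 and 2. The fold was 8.45 and 8.91 in DE replicates 1 and 2, against 13.3 and 14.1 in WT replicates 1 and 2. It stood among the stronger intervals of every list. A region 11286 bp outside Lck, between genes, ranked 10.9% and 28.8% in DE replicates 1 and 2, against 25.9% and 25.6% in WT replicates 1 and 2, and the start of Hdac1, a histone deacetylase gene 5381 bp away, carried both marks.

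Cd247 encodes the zeta chain of the T cell receptor complex. Its broad region of 1045 bp (chromosome 1, 165844650 to 165845694) lay in the body, 55969 bp from the listed start, and overlapped the long noncoding gene Gm32999. It ranked 16.2% and 55.7% in DE replicates 1 and 2, against 35.7% and 51.6% in WT replicates 1 and 2. Among all regions called in 4 lists, 4.38% were as wide or wider. Within 1 kb of the listed start, at 165788681, there was no interval in any list. A region of 102 bp (165780649 to 165780750) was not listed in DE replicates 1 or 2. It ranked 62.1% and 57.3% in WT replicates 1 and 2, with intervals of 85 and 101 bp. This region lay 7931 bp before the listed start, near the lower end of the gene bounds at 165779952. Its pattern was not kept with lists of equal length or at the stricter q.

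Cd3d, a chain of the CD3 complex, had an own region in the body (chromosome 9, 44986541 to 44986787) that ranked 51.2% in DE replicate 1 and 81.9% in WT replicate 2. The same region was counted within 20 kb for its neighbours Cd3e and Cd3g, which had no own interval. Cd3g and Cd3d also had the start of Ube4a, a ubiquitin ligase gene, in their windows, at ranks of 18.4% and 14.3% in DE replicates 1 and 2, against 22.0% and 14.0% in WT replicates 1 and 2. The 3 clustered CD3 genes thus drew their calls from 2 regions, and 1 of these belonged to a neighbour.

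Of the surface receptors, Cd4, the coreceptor for MHC class II, had 2 regions outside its lower-coordinate end, at 816 and 478 bp. Both lie in Gpr162, a receptor-like gene, and within 1 kb of the Gpr162 start. Counted for the overlapped or nearest gene alone, Cd4 was called in no list. Whether the lower-coordinate end holds the start of Cd4 was not resolved by the tables used. One ranked 64.5% in DE replicate 1 and 64.3% in WT replicate 1, and the other 39.8% in WT replicate 1 alone. Near Lag3, an inhibitory receptor gene 15413 bp away, a region ranked 63.2% and 70.1% in DE replicates 1 and 2, against 26.7% and 40.0% in WT replicates 1 and 2. Thy1, a surface glycoprotein of T cells, had none of its own and a region in Usp2, a deubiquitinase gene, at 41.4% in DE replicate 1, against 19.3% and 95.6% in WT replicates 1 and 2. Il7r (the interleukin-7 receptor), Cd8a (the coreceptor for MHC class I) and Cd28 (a costimulatory receptor) had no interval within 20 kb. The nearest region to Il7r lay 206.4 kb away, and those to Cd28 and Cd8a 77 kb and 61.3 kb.

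Of the 12 NK and innate lymphoid genes, 10 had H3K4me2 within 20 kb in some list (74.9% of all genes). An own interval was found at 4 (62.5% of all genes) and a start interval at 3 (53.9% of all genes). The 2 strongest own regions of all 38 genes were here, at Rora and Zbtb16, which encode transcription factors of innate lymphoid cells. The Rora region (chromosome 9, 69289494 to 69290774, 1281 bp) lay 635708 bp from the listed start, deep in a gene of 734843 bp. It ranked 0.865% and 0.504% in DE replicates 1 and 2, against 1.58% and 1.39% in WT replicates 1 and 2. The fold was 26.6 and 24.2 in DE replicates 1 and 2, against 21.1 and 32.9 in WT replicates 1 and 2. It stood among the strongest 2% of every list and had no H3K4me3 interval over it. Of the 331 regions called in all 4 lists, away from starts and with a mean rank in the top 10%, 50.5% had one. The Rora region had a mean rank of 1.08%, so that set reaches to weaker regions. Only 1.92% of regions called in all 4 lists were as wide or wider. The start of Rora had no interval in any list, and a second body region (69099683 to 69100189) ranked 47.5% and 82.1% in DE replicates 1 and 2, against 61.7% and 67.3% in WT replicates 1 and 2. With lists of equal length that second region was DE-only.

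Zbtb16, which encodes PLZF, had its strongest region over the higher-coordinate end of the gene (chromosome 9, 48835670 to 48836612, 943 bp). It ranked 4.30% and 4.00% in DE replicates 1 and 2, against 3.08% and 10.4% in WT replicates 1 and 2. The fold was 16.7 and 15.0 in DE replicates 1 and 2, against 18.1 and 18.1 in WT replicates 1 and 2. All 4 libraries gave a broad, strong interval there, and 6.55% of regions called in all 4 lists were as wide or wider. A second region 827 bp inside that end ranked 34.6% and 32.8% in DE replicates 1 and 2, against 53.4% and 37.2% in WT replicates 1 and 2. Neither carried H3K4me3, which 45.7% of all start regions called in 4 lists did. Of the 1430 such regions with a mean rank in the top 10%, 70.8% did. The first region had a mean rank of 5.44%, and a closer match of strength was not made. A body region of 164 bp (48817476 to 48817639) was not listed in DE replicates 1 or 2 and ranked 37.8% and 65.8% in WT replicates 1 and 2, with intervals of 93 and 109 bp. It kept this pattern at a -log10 q of at least 5 but not with lists of equal length.

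**Figure D5:**
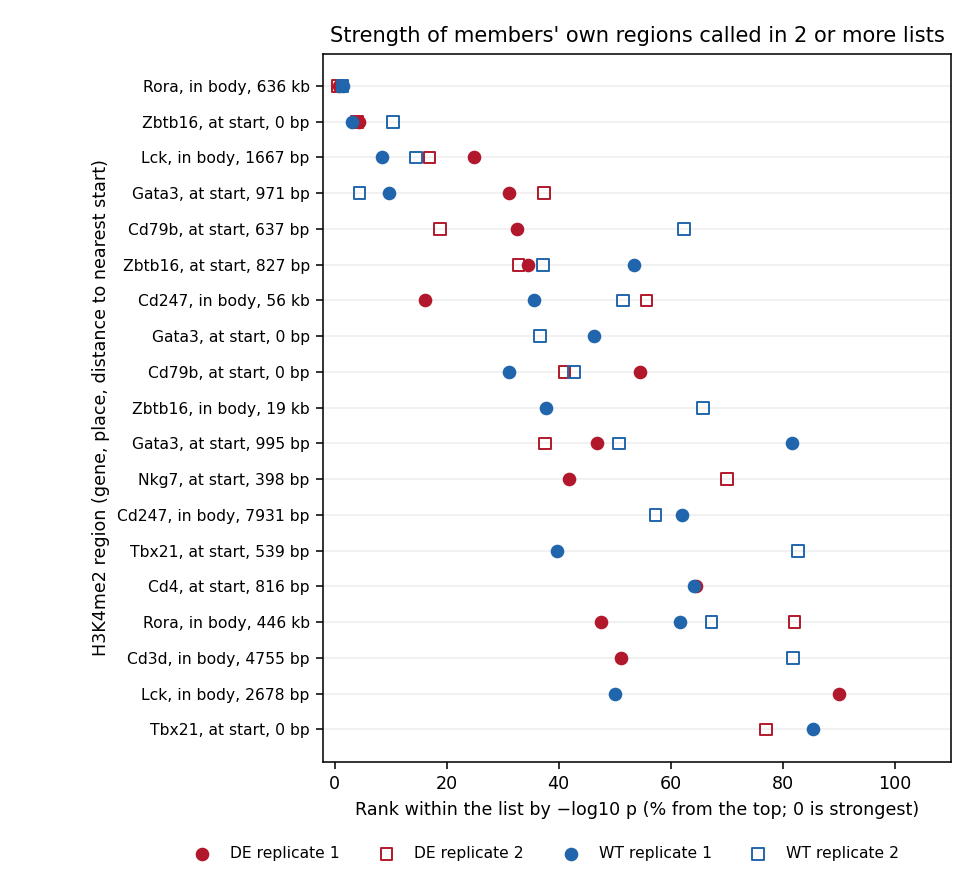
Rank within the list (%, 0 is strongest) of the 19 own regions called in 2 or more H3K4me2 lists, one row per region with its place and distance to the nearest start, and DE and WT replicates as separate symbols. Rora and Zbtb16 stand at the strong end with ranks of 0.504% to 10.4% in the 4 lists, with the strongest Lck and Gata3 regions among those next.

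The T-box factor genes of cytotoxic lymphocytes differed in where they were called. Tbx21, which encodes T-bet, had no interval within 20 kb in DE replicate 1 and start intervals in the other 3 lists. A region over its start (chromosome 11, 97115289 to 97115427) ranked 77.0% in DE replicate 2 and 85.4% in WT replicate 1. One 539 bp upstream (97115870 to 97116005) was not listed in DE replicates 1 or 2 and ranked 39.8% and 82.8% in WT replicates 1 and 2, with intervals of 136 and 108 bp. That pattern was not kept with lists of equal length or at the stricter q. Eomes, the related factor, had no own interval. Near it, 2 regions were called in 3 lists each. One, in the noncoding gene Gm33460 at 3586 bp, ranked 64.0% and 74.5% in DE replicates 1 and 2 and 46.7% in WT replicate 1. The other, at the start of the neighbour Golga4, ranked 94.7% in DE replicate 1, against 28.8% and 32.7% in WT replicates 1 and 2, and was WT-only with lists of equal length and at the stricter q.

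Among the cytotoxic granule genes, Nkg7 had the only own interval. Nkg7, a granule protein gene of 1109 bp (chromosome 7, start at 43437138), had a region 398 bp from its start (43437536 to 43438080, 545 bp) with ranks of 41.9% and 70.1% in DE replicates 1 and 2. It was not listed in WT replicates 1 or 2. The fold was 6.87 and 4.58 in DE replicates 1 and 2. A region 161 bp beyond the gene (43438407 to 43438564) followed the same pattern, at 85.5% and 69.9% in DE replicates 1 and 2. The start region was also DE-only with lists of equal length, but not at a -log10 q of at least 5, where DE replicate 2 dropped out. At the neighbours Cldnd2 and Etfb, 4990 and 5659 bp from Nkg7, 2 regions were called in all 4 lists, the nearer of them at 4.61% and 22.1% in DE replicates 1 and 2, against 10.2% and 10.8% in WT replicates 1 and 2.

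The granzyme genes Gzma and Gzmb and the perforin gene Prf1 had 1 interval each within 20 kb, none of them on the gene. They were at 96.0% in DE replicate 1 for Gzma, at 68.5% in WT replicate 1 for Gzmb and at 44.8% in WT replicate 1 for Prf1. Of the receptors, Ncr1 (NKp46) had 1 interval 12097 bp away at 80.2% in DE replicate 1. Klrd1 (CD94) and Il2rb, a chain of the interleukin-2 and interleukin-15 receptors, had none, with nearest regions 52.1 kb and 30.8 kb away. Klrb1c, which encodes the NK1.1 antigen in some mouse strains, was flanked by 4 regions called in all 4 lists, each with an H3K4me3 interval over it. The closest, 10879 bp away, ranked 35.0% and 93.6% in DE replicates 1 and 2, against 20.1% and 38.3% in WT replicates 1 and 2, with H3K4me3 at 60.7%. The 4 regions lay between protein-coding genes, and 2 of them in the noncoding gene Gm34755. Klrb1c has close paralogues beside it in this receptor cluster, and the authors' handling of reads that match several sites is not given.

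No lymphoid gene had an H3K4me3 interval of its own. Within 20 kb, 8 of the 38 genes (21.1%) had one, beside 32.5% of all genes, and by own intervals it was 0 of 38, beside 22.9%, and within 1 kb of the start 0 of 38, beside 21.6%. The 8 were Cd79a, Vpreb1, Igll1, Cd3d, Cd3g, Lck, Tcf7 and Klrb1c. For 7 of them the H3K4me3 lay at the start of a neighbour, namely Arhgef1, Rps19, Top3b, Ube4a, Hdac1 or Skp1. The 2 lymphoid genes with H3K4me2 at the start in all 4 lists, Cd79b and Zbtb16, had none, whereas 50.6% of all 8592 genes so called did. Of all 41015 H3K4me2 regions 14.2% had H3K4me3 over them, and of those called in all 4 lists 45.7% at starts and 19.3% elsewhere. The list comes from 1 library, and a gene without a call may carry the mark below the caller's limit.

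Between the genotypes, no lymphoid gene was called within 20 kb in both DE libraries and neither WT library (0.196% of all genes), and none in both WT and neither DE (3.53% of all genes). By own intervals, Nkg7 alone was called in both DE and neither WT (0.21% of all genes), and 0 in both WT and neither DE (3.67% of all genes). Within 1 kb of the start the counts were the same, beside 0.224% and 3.07% of all genes. With lists of equal length the counts by own intervals were again 1 and 0, beside 1.18% and 1.33% of all genes. Of the 90 regions, 24 were called in all 4 lists, beside 29.7% of all regions. Regions called in both DE and neither WT were 2, both at Nkg7, beside 1.11% of all regions, and those in both WT and neither DE were 6, beside 8.77%. The 6 were the regions at Gata3, Tbx21, Cd247 and Zbtb16 above, 1 at the start of Rps19 near Cd79a and 1 at the start of P3h3 near Cd4. Over all regions the median width was 262.5 bp for the DE-only and 178 bp for the WT-only pattern, beside 433 bp for regions called in all 4 lists. With 2 libraries against 2 the smallest exact two-sided permutation p is 0.333, so no region could pass a threshold of 0.05, and none was tested.

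Single-library calls made up much of the rest, on the lymphoid genes as over all regions. Of the 34 own regions, 15 were listed in 1 library alone, 3 in DE replicate 1 and 3 in DE replicate 2, against 7 in WT replicate 1 and 2 in WT replicate 2. Of all 41015 regions, the same libraries had 3060 and 1093 such regions in DE replicates 1 and 2, against 8504 and 4940 in WT replicates 1 and 2. These regions include all own calls of Pax5, Pou2af1, Tcf7, Bcl11b and Lef1.

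Further genes of the same lineages were mostly without start calls, while the shared priming genes had them. Within 1 kb of the start, H3K4me2 was called in all 4 lists at 1 of 16 further B cell genes (Btk, a kinase also used by myeloid cells), beside 39.3% of all genes. It was called so at 2 of 20 further T cell genes (Ubash3a and Satb1) and at 5 of 20 further NK and innate lymphoid genes (Itga2, Id2, Nfil3, Tox and Il12rb2). None of these 56 genes had H3K4me3 within 1 kb of the start, beside 21.6% of all genes. Satb1 did have an own H3K4me3 interval, as did 22.9% of all genes. Cd6, a T cell surface receptor gene, was called at the start in both DE libraries and neither WT library (0.224% of all genes). No further gene of these 3 lists had either genotype pattern there, beside 3.07% of all genes for both WT and neither DE. Of 14 genes of early lymphoid priming that progenitors share, 13 had H3K4me2 at the start in all 4 lists, among them Ikzf1, Flt3, Notch1, Tcf3, Tcf12 and Id3, and 8 had H3K4me3 there.

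Across lineages, start calls in at least 1 list were made at 7 of 38 lymphoid genes and at 7 of 28 erythroid, megakaryocyte and mast cell genes. They were made at 25 of 28 monocyte and granulocyte genes, and at 53.9% of all genes. In all 4 lists it was 2, 4 and 17 genes of the same groups, beside 39.3% of all genes. H3K4me3 at the start was listed for 0, 1 and 12 genes of these groups, beside 21.6% of all genes. The groups were chosen by lineage and their differences were not tested.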

How the data were processed

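Peak lists of 5 of 7 samples were used, each of a single library. Per the submitters' processing notes, Trimmomatic, Bowtie2, SAMtools, Picard and MACS2 2.2.9.1 were run on mm10, and their settings, any control and the treatment of duplicates are not stated in those notes. Each deposited entry holds a score, a fold over local background (a linear ratio), the −log10 of the p and q, and the summit offset. These are the authors' values per peak.

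Here entries of the same interval were counted once by their strongest p, and ranked by −log10 p within the list, on the 19 autosomes, X and Y. Regions are merged touching or overlapping H3K4me2 intervals, and an overlap of 1 bp counts as a call. Gene bounds and promoters came from RefSeq tables of GRCm38.p6, with 1 or more starts for 17492 genes and either end used for the rest. All 38 genes were found by symbol. Python 3.11.15, NumPy 2.4.6, pandas 2.3.3 and Matplotlib 3.10.9 were used, and the counting code was tested on simulated lists. The genes and lists were chosen with earlier results of these data known, so counts are set beside all genes and no p over a list is given. Values per library were given for genes called at the start, for those with a genotype pattern and for 10 others by strongest rank. The remaining genes, the neighbours P3h3, Gpr162, Golga4, Iftap and Rag2, and noncoding genes were named after their values were seen. Alternatives were windows of 5 kb, the gene body, the start or the nearest gene alone, a stricter limit (−log10 q of 5 or more), equal list lengths, 50% cover, merging within 500 bp and leaving out each replicate.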

Additional observations from a re-analysis of the deposited data

How the results depend on the processing

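Counts within 20 kb fell when the window was narrowed. Genes called were 15 and 12 (DE replicates 1 and 2) and 18 and 13 (WT replicates 1 and 2) within 5 kb, 9, 8, 10 and 8 in the gene body, 5, 4, 5 and 5 at the start, and 12, 10, 15 and 11 by nearest gene, in the same order of libraries. Intervals were 29, 22, 38 and 24 within 5 kb, 17, 17, 24 and 17 in the body, 7, 7, 10 and 8 at the start, 24, 22, 33 and 22 by nearest gene and 30, 20, 38 and 40 at a −log10 q of at least 5. With lists of equal length they were 38 and 34 in WT replicates 1 and 2. Genes with H3K4me3 were 3 within 5 kb, 0 in the body and at the start, 1 by nearest gene and 4 at the stricter q. Of all genes, 22.4% had H3K4me3 by nearest gene and 22.4% at the stricter q. Genes called in all 4 H3K4me2 lists were 9, 6, 2 and 7 under the 4 narrower rules (5 kb, body, start, nearest gene), and genes called in none 16, 24, 31 and 18, with 15 at the stricter q and 15 with equal lengths. Of all genes, 35.2% were called in none at the stricter q and 32.8% with equal lengths. The DE-only count was 1 by body, start and nearest gene (0.224% of all genes at the start and 0.238% by nearest gene). The WT-only count was 2 at the stricter q (6.13% of all genes). A cover of 50% moved no count past 1.5 times.

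The rule of own intervals and its alternatives were added after the data were seen. For own intervals the stricter q gave 5 genes in DE replicate 2 (30.1% of all genes) and 0 DE-only genes (0.0822% of all genes). It gave 11, 9 and 15 intervals in DE replicates 1 and 2 and WT replicate 1. Equal lengths gave 15 and 10 intervals in WT replicates 1 and 2. The DE-only regions near the genes were 1 with merging and 0 at the stricter q (0.461% of all regions). With equal lengths, 3 of 59 regions near the genes were DE-only (Nkg7, Cd79b and Rora) and 3 WT-only. Over all 26171 regions called with equal lengths, 4.38% were DE-only and 3.66% WT-only. Regions in all 4 lists were 14 of 52 at the stricter q, beside 28.3% of all regions.

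Leaving out each replicate in turn gave 17 to 18 genes in all remaining lists, 9 to 14 in none (14 without WT replicate 1), 0 to 2 DE-only (2 without DE replicate 2) and 0 to 5 WT-only (5 without WT replicate 2). For own intervals it gave 6 to 7, 23 to 26, 1 to 2 (2 without DE replicate 2) and 0 to 3 (3 without WT replicate 2). Regions ran over 24 to 29 in all, 3 to 13 DE-only (13 without DE replicate 2) and 6 to 25 WT-only (25 without WT replicate 2). The correlation of the replicate differences over 41015 regions was −0.0474, so the numbers were not taken to pair the samples. DE minus WT was −2 genes between replicates 1 and −3 between replicates 2, with no test. The mean was −2.5 with and without the replicate block, an equality that the balanced layout fixes in advance. Depth is unknown, so a missing interval is no absence of the mark. Motifs in peak sequences were not run.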

Other observations

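Marker genes of further cell types were counted within 1 kb of the start, where 39.3% of all genes had H3K4me2 in all 4 lists, 53.9% in at least 1 and 0.224% in both DE and neither WT. Of 5 plasma cell markers, 3 had H3K4me2 there in all 4 lists, namely Sdc1, Prdm1, a repressor that drives plasma cells, and Xbp1, a factor of the secretory pathway, and Xbp1 alone had H3K4me3. Of 4 plasmacytoid dendritic cell markers, Bst2 and Tcf4, an E protein, were called in all 4 lists. Of 3 erythroid markers, Klf1 was called at the start in both DE and neither WT library. By own intervals, however, Klf1 was called in all 4 lists, as were 43.3% of all genes. Of 3 neutrophil markers, S100a8 was called at the start in both DE and neither WT library. Within 20 kb S100a8 was also called in WT replicate 1. Ltf was called at the start in at least 1 list. None of 3 mast cell and basophil markers was called in any list. These genes were named by list and after their values were seen, and no difference was tested.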
